A study of Mus musculus with 11 samples.

Results

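The genes described here are 38 transcripts that mark the mesenchyme of the lung and the fibrous matrix it lays down. They were picked by gene symbol from a count table of 24421 rows, and all 38 symbols were found there. By role they comprise 5 fibrillar collagens, 5 beaded and fibril-associated collagens, 6 elastic fibre and adhesive proteins, 5 small proteoglycans and matricellular proteins, 6 contractile and filament proteins, 4 surface receptors or antigens and 7 transcription factors.

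Fibroblasts secrete fibrillar collagens as procollagen triple helices, which are trimmed and cross-linked outside the cell into fibres that resist stretch. Elastin, laid down on microfibrils of fibrillin, gives the lung its recoil, and smooth muscle and myofibroblasts add the contractile proteins. In the developing lung most of these products come from mesenchymal cells around the epithelium, although epithelial cells are known to make some of them, fibronectin among these.

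RNA carrying a poly(A) tail was sequenced from fetal mouse lung at E17.5, after enzymatic dissociation, lysis of red cells and capture of cells bearing EpCAM, an epithelial surface protein, on magnetic beads. There were 6 libraries labelled Control and 5 labelled as a double knockout of Prdm3 and Prdm16, which encode zinc finger regulators of transcription. The comparison asks which of these transcripts, which the capture does not select for, were present beside the epithelium, whether they differed with genotype, and whether they moved together from library to library. Cre, carried at Shh, a gene of the lung epithelium, was passed on by Prdm3 fl/fl Prdm16 fl/wt males, and the females were Prdm3 fl/fl Prdm16 fl/fl. The labels give neither the floxed alleles nor the Cre status of the Control embryos. They do not say whether a library came from a single embryo or from a pool, or whether libraries came from separate animals, so p-values describe only how these 11 libraries scatter, part of which may be technical.

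Values are CPM, that is counts scaled to a common library size with TMM (trimmed mean of M values) factors, and knockout values are listed in the order of library numbers 1 to 5. Prdm16 ran from 173 to 227 CPM (median 199) in Control and measured 167, 169, 147, 181 and 165 CPM in the knockout. Mecom, the present symbol of Prdm3, ran from 206 to 233 CPM (median 216) in Control and measured 320.5, 349, 325, 352 and 354 CPM in the knockout, all above Control and so against the direction of the label. These counts cover whole genes and no source used here gives the exons removed from the floxed alleles, so they do not test recombination. In what follows, knockout means a library labelled so, and every direction rests on that label.

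Totals ran from 6065906 to 7869787 counts per library. The epithelial identity given by the label was borne out by 12 epithelial markers, which summed to 7715 to 8996 CPM in Control and 7019 to 7643 CPM in the knockout, with Epcam itself at 252 ± 25.3 CPM (SD, n = 6) and 261 ± 10.8 CPM (SD, n = 5). Of these 12 markers 5 were lower in the knockout and 0 higher by the test used below, and 7 did not pass. By that test 21.8% of all tested genes were lower and 21.1% higher. Control libraries 1, 3, 4 and 5 and knockout library 4 held abundant Y-linked transcripts and the other 6 few, so the groups differ in this respect and results are also given within each set. Control libraries 5 and 6 stood apart from the other Control libraries on the mesothelial and immune lists given further on.

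The genotype effect was fitted with edgeR's quasi-likelihood test over the 13916 genes with enough counts, with Benjamini-Hochberg adjustment over all of them and a threshold of 0.05. Of the 38 members 33 were tested, and all 33 would have been kept on the Control libraries alone. Among these 33 genes 19 were called, where 42.9% of all tested genes were called. Of the 19, 14 (42.4% of those tested) were higher in the knockout, where 21.1% of all tested genes were higher, and 5 (15.2%) were lower, where 21.8% of all tested genes were lower; 14 did not pass. The median log2 fold change of knockout over Control was 0.40 for the members and 0.0023 for all tested genes. CPM ranges of the groups lay apart for 9 of the called genes, 8 higher (24.2% of those tested) and 1 lower (3.03%), against 14.2% of all tested genes in each direction. The other 10 called genes had ranges that overlapped. Scaling by library size alone, which moves the median of all genes to 0.11, gave 15 members higher and 5 lower; 65.6% of all calls were then higher, against 49.2% with TMM.

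Within the 6 libraries with low Y-linked transcripts, 2 Control and 4 knockout, 36 members were tested. Of these 8 were higher, against 13.4% of all genes tested there, and 3 were lower, against 12.7%. Within the 5 with high Y-linked transcripts 2 members were higher, against 6.11%, and 3 lower, against 6.56%; here the lone knockout library is assumed to vary like the others. All 19 genes called over the 11 libraries had the same direction in both sets, and 9 of them were called in the low set. Both sets are parts of the 11 libraries that gave the calls, so this agreement is not independent support. Since these are bulk samples, fewer cells of a type and less RNA per cell cannot be told apart for any gene below. Exons of Col5a1, Fn1, Eln, Fbn1, Fbn2, Mfap4, Tagln, Des, Pdgfra, Zeb1 and Zeb2 overlap a gene on the opposite strand, and without a stated strand setting reads of such partners cannot be told apart.

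**Figure D1:**
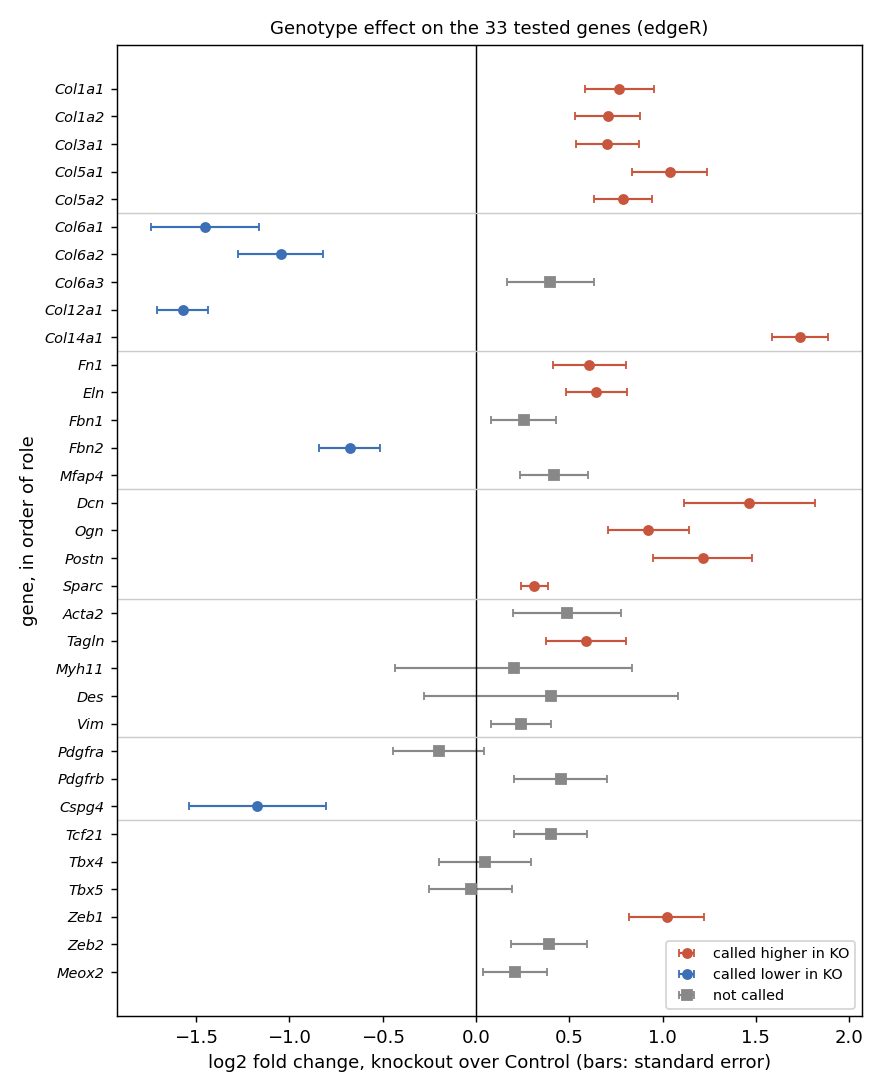
Log2 fold change of knockout over Control with its standard error from edgeR for the 33 members tested, grouped by role. The 5 fibrillar collagens lie to the right of 0, whereas Col6a1, Col6a2 and Col12a1 lie far to the left, with Col12a1 at -1.57 and Col14a1 at 1.74 as the lowest and the highest.

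The fibrillar collagens rose together, and all 5 tested passed the threshold. Col1a1 and Col1a2, whose chains assemble into type I collagen, the main fibre of stroma, were the first pair. Col1a1 ran from 39.4 to 78.5 CPM (median 53.1) in Control and measured 96.9, 82.2, 138, 74.5 and 82.7 CPM in the knockout. Only knockout library 4 fell inside the Control range, and the log2 fold change was 0.77 (SE 0.19; edgeR, BH-adjusted p = 0.00465). Col1a2 ran from 59.3 to 106 CPM (median 70.0) in Control and measured 123, 103, 174, 89.5 and 116 CPM in the knockout, where libraries 2 and 4 fell inside the Control range. Its log2 fold change was 0.71 (SE 0.17; edgeR, BH-adjusted p = 0.00519).

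Col3a1, the chain of type III collagen, which accompanies type I in extensible tissues, ran from 59.1 to 102 CPM (median 81.1) in Control. The knockout libraries gave 130, 107, 185, 102 and 125 CPM, all above the Control range, though library 4 exceeded the highest Control library only narrowly. The log2 fold change was 0.70 (SE 0.17; edgeR, BH-adjusted p = 0.00421). Type V collagen, a minor component that starts fibrils and limits their width, is made from Col5a1 and Col5a2. Col5a1 ran from 15.9 to 40.3 CPM (median 26.1) in Control and measured 59.3, 43.4, 71.7, 46.1 and 48.5 CPM in the knockout, without overlap. It had the largest change of the 5, with a log2 fold change of 1.04 (SE 0.20; edgeR, BH-adjusted p = 9.48e-04). Col5a2 ran from 9.54 to 14.7 CPM (median 10.2) in Control and gave 18.6, 17.1, 26.8, 15.4 and 19.4 CPM in the knockout, also without overlap (log2 fold change 0.79; SE 0.15; edgeR, BH-adjusted p = 6.82e-04).

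The 5 genes summed to 192 to 341 CPM in Control and 328 to 596 CPM in the knockout. Library 6 was the highest Control library for every gene of the 5, and knockout library 3 was the highest knockout library for every one. Within the sets of libraries defined by Y-linked transcripts, Col1a1 had log2 fold changes of 0.75 in the low set (edgeR, BH-adjusted p = 0.118) and 0.46 in the high set (edgeR, BH-adjusted p = 0.138). Col5a2 was called in the low set and Col5a1 in the high set.

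**Figure D2:**
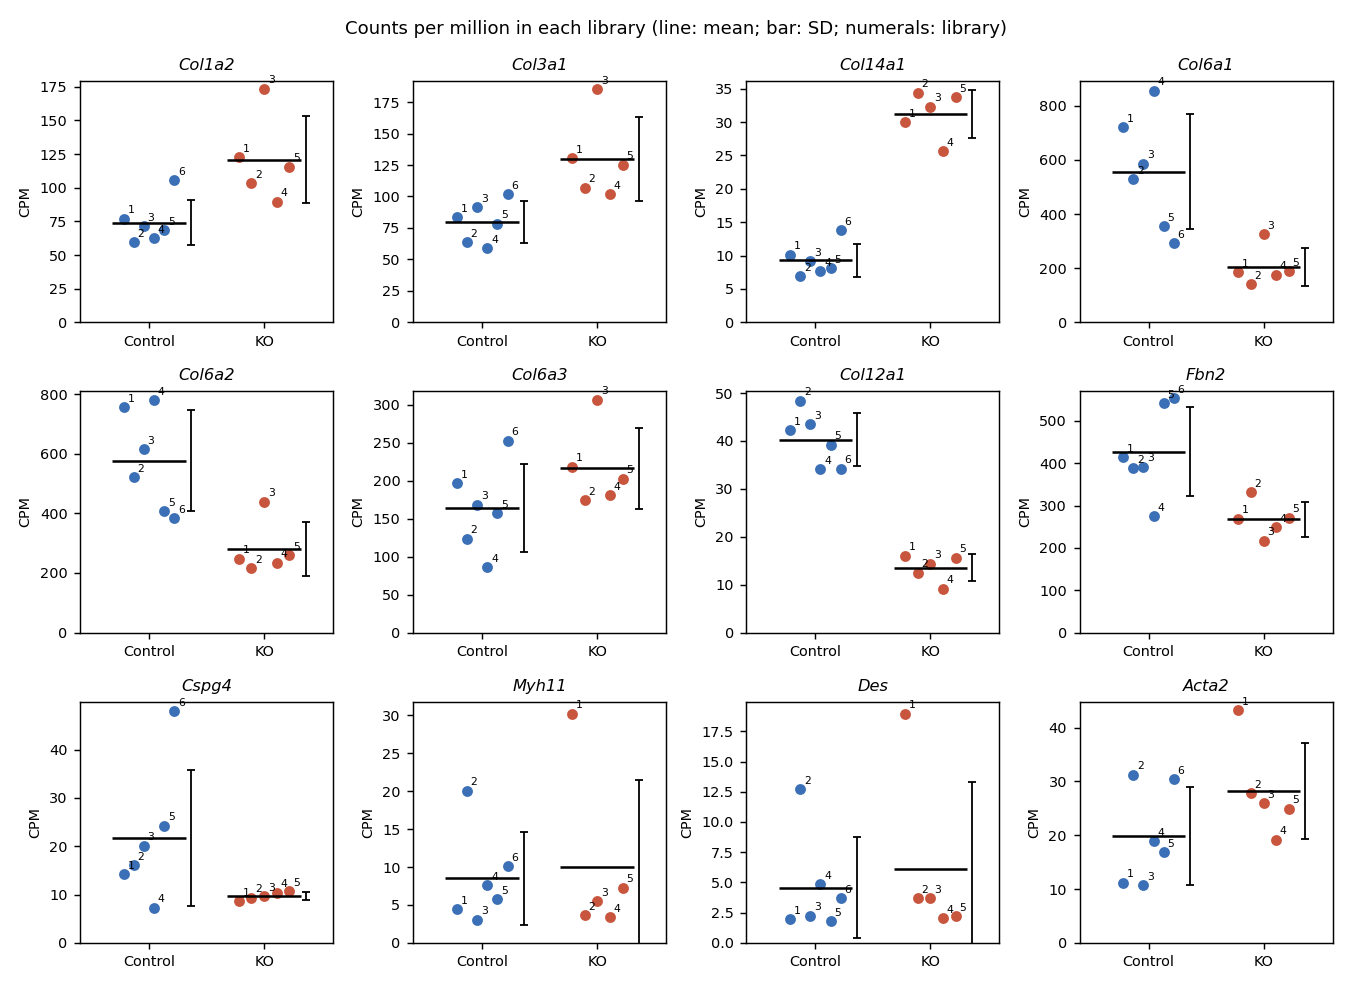
CPM of 12 member genes in each library, with Control and knockout side by side; points are libraries with their numbers, lines are group means and bars the SD, cut off at 0. Col6a1, Col6a2 and Col12a1 sit lower in the knockout, Col1a2 and Col3a1 higher, and knockout library 1 stands alone for Myh11 at 30.2 CPM.

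The beaded and fibril-associated collagens moved in both directions, with 3 lower, 1 higher and 1 not called. Type VI collagen forms beaded filaments near cell surfaces and in most tissues is assembled from the chains of Col6a1, Col6a2 and Col6a3. Col6a1 measured 721, 529, 585, 855, 356 and 292 CPM in Control libraries 1 to 6 and 185, 141, 324, 176 and 188 CPM in the knockout. Knockout library 3 alone reached the lowest Control library, and the log2 fold change was -1.45 (SE 0.29; edgeR, BH-adjusted p = 0.00132). Col6a2 measured 756, 522, 615, 780, 407 and 383 CPM in Control and 248, 215, 438, 235 and 259 CPM in the knockout, again with only library 3 inside the Control range. Its log2 fold change was -1.05 (SE 0.23; edgeR, BH-adjusted p = 0.00228).

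Col6a3, by contrast, ran from 86.2 to 253 CPM (median 163) in Control and measured 219, 175, 307, 181 and 203 CPM in the knockout, with a log2 fold change of 0.40 (SE 0.23; edgeR, BH-adjusted p = 0.193) that did not pass. Among the Control libraries, library 4 was the highest for Col6a1 and Col6a2 and the lowest for Col6a3, and library 6 was the lowest for Col6a1 and Col6a2 and the highest for Col6a3. The ratio of Col6a1 to Col6a3 ran from 1.16 to 9.92 in Control and from 0.807 to 1.06 in the knockout. For Col6a2 to Col6a3 it ran from 1.52 to 9.05 in Control and from 1.14 to 1.43 in the knockout. Neither ratio overlapped between groups, but these pairs were chosen after their values were seen, so no p is given for them. Within the low set the Col6a1 and Col6a2 changes were -0.97 (edgeR, BH-adjusted p = 0.0695) and -0.65 (edgeR, BH-adjusted p = 0.128), and within the high set -1.85 (edgeR, BH-adjusted p = 0.0200) and -1.45 (edgeR, BH-adjusted p = 0.0210).

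To show where these genes start, the 120 bases just before the annotated 5′ end are given for the 3 type VI chains, which parted in the data, and for Col3a1, a fibrillar chain that rose. They come from RefSeq promoter windows on GRCm38.p6 and read 5′ to 3′ on the gene's own strand, with capitals for the only match on either strand to a TATAAA box, a GGGCGG box or a CCAAT box.
Col3a1: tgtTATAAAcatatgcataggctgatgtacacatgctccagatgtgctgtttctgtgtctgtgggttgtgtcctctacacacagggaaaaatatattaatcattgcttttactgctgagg
Col6a1: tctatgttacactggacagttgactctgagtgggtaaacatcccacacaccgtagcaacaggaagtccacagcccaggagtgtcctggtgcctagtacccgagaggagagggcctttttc
Col6a2: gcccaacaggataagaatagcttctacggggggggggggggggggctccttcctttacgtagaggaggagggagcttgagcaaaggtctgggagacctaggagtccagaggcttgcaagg
Col6a3: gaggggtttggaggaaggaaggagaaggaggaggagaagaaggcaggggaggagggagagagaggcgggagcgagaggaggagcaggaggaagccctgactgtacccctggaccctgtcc

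The Col3a1 stretch lies at chr1:45311418-45311537 on the plus strand, ahead of a gene that runs to 45349706. Col6a1 and Col6a2 are neighbours on the minus strand of chromosome 10, with stretches at chr10:76726169-76726288 and chr10:76623631-76623750. The Col6a3 stretch lies on another chromosome, at chr1:90843972-90844091 on the minus strand. GC content was 40.0% for Col3a1, 53.3% for Col6a1, 60% for Col6a2 and 63.3% for Col6a3. RefSeq places the Col6a1 start 124 bases inside the annotated gene, so for this gene the stretch ends that far before the RefSeq start.

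Promoter windows from 250 bases before to 50 bases after the RefSeq start were on hand for 21 of the 38 members. A CArG box, the sequence bound by serum response factor, was searched only in its strict form: CC, a run of A or T, then GG. It was found on either strand in 0 of the 21 windows and in 1.63% of all 32851 windows. With so low a share over all windows, 0 of 21 says little. Looser forms were not searched, and Tagln and Myh11 had no window. TATAAA was found in 7 of the 21 windows and in 13.6% of all windows, GGGCGG in 9 and 35.7%, and CCAAT in 5 and 37.4%. These matches describe the letters in the windows only.

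Col12a1 and Col14a1 encode collagens with interrupted triple helices that sit on the surface of fibrils. Col12a1 ran from 34.1 to 48.4 CPM (median 40.8) in Control and measured 16.1, 12.5, 14.3, 9.13 and 15.7 CPM in the knockout, so every knockout library was far below every Control library (chromosome 9, 79598991 to 79718831, mm10). The log2 fold change was -1.57 (SE 0.14; edgeR, BH-adjusted p = 2.71e-07). Col14a1 (chromosome 15, 55307750 to 55520803) took the opposite course, from a Control range of 6.92 to 13.8 CPM (median 8.62) to 30.0, 34.4, 32.3, 25.6 and 33.7 CPM in the knockout (log2 fold change 1.74; SE 0.15; edgeR, BH-adjusted p = 2.25e-07). The ratio of Col12a1 to Col14a1 ran from 2.47 to 7.0 in Control and from 0.357 to 0.535 in the knockout; this pair too was chosen after its values were seen. Both genes were called in both sets of libraries, Col12a1 at -1.50 in the low and -2.13 in the high set and Col14a1 at 1.63 and 1.54. Col12a1 did not follow the library order of the fibrillar collagens, being highest in Control library 2 and knockout library 1. Col14a1 followed the order of their summed CPM in Control, with library 6 the highest, but was highest in knockout library 2. Its ratio to that sum had a coefficient of variation of 6.38% in Control, against 26.8% for its CPM. In the knockout the same figures were 21.3% and 11.4%.

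Of the elastic fibre and adhesive proteins 2 of 5 tested rose, 1 fell and 2 were not called. Eln, the precursor of elastin, ran from 292 to 509 CPM (median 387) in Control and measured 592, 490, 846, 530 and 551 CPM in the knockout, where only library 2 fell inside the Control range. Its log2 fold change was 0.65 (SE 0.16; edgeR, BH-adjusted p = 0.00544). Fn1, fibronectin, an adhesive glycoprotein of early matrix, ran from 136 to 264 CPM (median 178) in Control and measured 261, 218, 434, 259 and 246 CPM in the knockout. Knockout library 3 was the only library above the Control range. The log2 fold change of 0.61 (SE 0.20; edgeR, BH-adjusted p = 0.0233) fell to 0.40 without that library and was then not called.

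Fibrillin 1 and fibrillin 2, encoded by Fbn1 and Fbn2, form the microfibrils on which elastin is laid, Fbn2 being the more fetal of the pair. Fbn2 ran from 276 to 553 CPM (median 403) in Control and measured 269, 332, 217, 249 and 271 CPM in the knockout, with library 2 alone inside the Control range. It fell by 0.68 on the log2 scale (SE 0.16; edgeR, BH-adjusted p = 0.00416). Fbn1 ran from 23.5 to 40.4 CPM (median 30.2) in Control and measured 32.2, 31.3, 54.5, 28.4 and 41.0 CPM in the knockout, with a log2 fold change of 0.26 (SE 0.18; edgeR, BH-adjusted p = 0.268). The Fbn2 to Fbn1 ratio ran from 10.1 to 16.5 in Control and from 3.97 to 10.6 in the knockout, which overlap slightly. Without Control libraries 5 and 6, the highest pair for Fbn2, the Fbn2 change was -0.46.

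Mfap4, a microfibril-associated glycoprotein, ran from 254 to 449 CPM (median 338) in Control and measured 388, 388, 714, 414 and 427 CPM in the knockout, with a log2 fold change of 0.42 (SE 0.18; edgeR, BH-adjusted p = 0.0780). Only knockout library 3 exceeded Control. Mfap5, another microfibril-associated protein, had too few counts for the test: 24 counts summed in Control and 66 in the knockout, a ratio of 3.06 after scaling to library totals (95% exact interval 1.89 to 5.10). This and the later intervals of that kind cover counting error only.

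The small proteoglycans and matricellular proteins that could be tested, 4 of 5, all rose. Sparc, a collagen-binding protein of matrix assembly, was the most abundant member per length of transcript, at a mean of 307 CPM per kb of exon in Control and 382 in the knockout. It ran from 1045 to 1282 CPM (median 1172) in Control and measured 1443, 1552, 1423, 1473 and 1338 CPM in the knockout. All knockout libraries were above all Control libraries, although the log2 fold change was only 0.31 (SE 0.074; edgeR, BH-adjusted p = 0.00305). Library 3 was not the highest knockout library here, unlike for most members.

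Ogn, osteoglycin, a leucine-rich proteoglycan, ran from 10.8 to 21.8 CPM (median 17.0) in Control and measured 27.7, 23.0, 47.6, 27.1 and 30.7 CPM in the knockout, without overlap (log2 fold change 0.92; SE 0.22; edgeR, BH-adjusted p = 0.00381). Postn, periostin, a matricellular protein of fibroblasts, ran from 0.553 to 2.66 CPM (median 2.30) in Control and measured 5.17, 4.34, 6.15, 4.12 and 3.82 CPM in the knockout, also without overlap (log2 fold change 1.22; SE 0.27; edgeR, BH-adjusted p = 0.00161). Dcn, decorin, a proteoglycan that decorates collagen fibrils, ran from 1.76 to 6.07 CPM (median 2.07) in Control and measured 10.7, 4.86, 11.1, 4.63 and 9.50 CPM in the knockout. Its groups overlapped through Control library 4 and knockout libraries 2 and 4, with a log2 fold change of 1.47 (SE 0.35; edgeR, BH-adjusted p = 0.00385). Lum, lumican, a relative of decorin, was not tested, with 18 counts in Control and 57 in the knockout, a ratio of 3.52 (95% exact interval 2.04 to 6.36).

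Within the sets of libraries, Sparc, Postn and Dcn were called in the low set and not in the high set. The Dcn log2 fold change was 2.11 in the low set (edgeR, BH-adjusted p = 0.00357) and 0.42 in the high set (edgeR, BH-adjusted p = 0.740), and that of Postn 1.70 (edgeR, BH-adjusted p = 0.0213) and 0.81 (edgeR, BH-adjusted p = 0.225). Ogn was called in neither, at 1.01 (edgeR, BH-adjusted p = 0.0733) and 0.69 (edgeR, BH-adjusted p = 0.166).

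**Figure D3:**
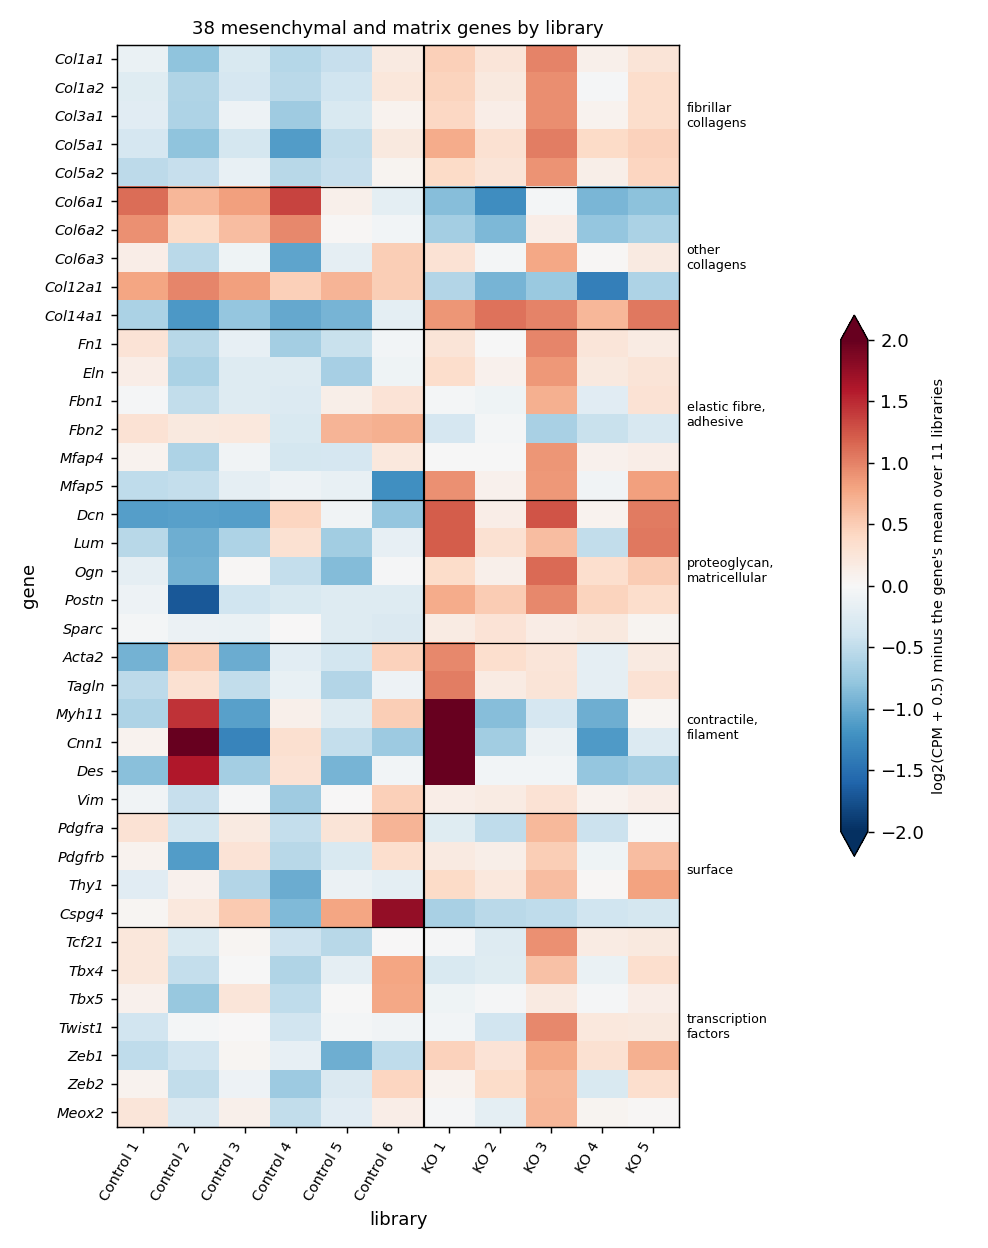
Heat map of the 38 members in the 11 libraries, as log2 CPM relative to the gene's mean, ordered by role; colours are at full strength beyond 2 in either direction. Knockout library 3 is the highest knockout library for 24 of 38 members, and knockout library 1 stands out in the contractile genes, as does Control library 2.

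The contractile and filament genes followed different libraries. Of 5 tested 1 rose and 4 were not called. Tagln, transgelin, an actin-binding protein of smooth muscle, ran from 17.6 to 33.05 CPM (median 21.3) in Control and measured 54.5, 29.8, 31.9, 23.5 and 32.6 CPM in the knockout. Only knockout library 1 lay above Control. The log2 fold change of 0.59 (SE 0.21; edgeR, BH-adjusted p = 0.0389) fell to 0.37 without that library and was then not called, and the call was also lost without any of Control libraries 1, 3, 4 or 5 or knockout libraries 3 or 5.

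Acta2, smooth muscle actin, ran from 10.7 to 31.3 CPM (median 17.9) in Control and measured 43.2, 27.9, 26.0, 19.2 and 24.9 CPM in the knockout (log2 fold change 0.49; SE 0.29; edgeR, BH-adjusted p = 0.198). Myh11, the myosin heavy chain of differentiated smooth muscle, measured 4.44, 20.1, 3.04, 7.63, 5.79 and 10.1 CPM in Control and 30.2, 3.68, 5.51, 3.35 and 7.28 CPM in the knockout. Control library 2 was the highest of its group, and knockout library 1 was above every other library. Without knockout library 1 the log2 fold change of Myh11 was -0.80, against 0.20 with it (edgeR, BH-adjusted p = 0.826). Des, desmin, a muscle intermediate filament, reached 12.7 CPM in Control library 2 and 18.96 CPM in knockout library 1 and stayed between 1.79 and 4.85 CPM in the other 9. Its log2 fold change was 0.40 (SE 0.68; edgeR, BH-adjusted p = 0.669), and -0.66 without knockout library 1. Cnn1, calponin, was not tested: the same libraries gave 7.19 and 6.76 CPM, the others at most 1.56 CPM, and the summed counts were 78 in Control and 72 in the knockout, a ratio of 1.03 (95% exact interval 0.734 to 1.43).

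Vim, vimentin, the intermediate filament of mesenchymal cells generally, did not follow the muscle genes. It ran from 59.3 to 135 CPM (median 94.4) in Control and measured 107, 109, 119, 103 and 107 CPM in the knockout, with a log2 fold change of 0.24 (SE 0.16; edgeR, BH-adjusted p = 0.245). The knockout libraries lay close together inside a wide Control range.

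Among the surface receptors and antigens 1 of 3 tested fell and 2 were not called. Pdgfra, a growth factor receptor of lung fibroblasts and myofibroblast precursors, ran from 14.7 to 33.3 CPM (median 24.2) in Control and measured 32.7 CPM in knockout library 3 and 14.4 to 20.6 CPM in the other 4 (log2 fold change -0.20; SE 0.24; edgeR, BH-adjusted p = 0.542). Pdgfrb, its relative on pericytes and vascular smooth muscle, ran from 2.08 to 6.54 CPM (median 4.66) in Control and measured 5.83, 5.52, 7.30, 4.76 and 8.02 CPM in the knockout (log2 fold change 0.46; SE 0.25; edgeR, BH-adjusted p = 0.156). Cspg4, the proteoglycan NG2 used as a pericyte marker, measured 14.2, 16.0, 20.1, 7.28, 24.2 and 47.9 CPM in Control and 8.62, 9.33, 9.61, 10.42 and 10.7 CPM in the knockout. The knockout values were tightly grouped and the Control values widely spread, library 4 lying below every knockout library. The Cspg4 log2 fold change was -1.17 (SE 0.37; edgeR, BH-adjusted p = 0.0207), and -0.76, still called, without Control library 6. It was not called without knockout library 2.

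Thy1, a surface antigen of fibroblasts, was not tested, with 13 counts in Control and 33 in the knockout, a ratio of 2.82 (95% exact interval 1.45 to 5.84). Of other genes used to mark pericytes, Notch3, also made by smooth muscle, was higher in the knockout at a log2 fold change of 0.57 (edgeR, BH-adjusted p = 6.42e-04). Kcnj8, a potassium channel subunit, averaged 1.13 ± 0.441 CPM (SD, n = 6) in Control and 1.81 ± 0.751 CPM (SD, n = 5) in the knockout and did not pass (edgeR, BH-adjusted p = 0.117), and Abcc9, Rgs5 and Higd1b were too low to test.

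Of the transcription factors 1 of 6 tested was higher and 5 were not called. Zeb1, a zinc finger repressor of epithelial genes, ran from 1.65 to 3.84 CPM (median 2.63) in Control and measured 5.30, 4.598, 6.66, 4.76 and 6.42 CPM in the knockout, without overlap. Its log2 fold change was 1.02 (SE 0.20; edgeR, BH-adjusted p = 6.94e-04). Zeb2, its close relative, ran from 13.5 to 30.9 CPM (median 19.9) in Control and measured 23.9, 29.4, 35.9, 18.4 and 28.9 CPM in the knockout, which overlapped and did not pass (log2 fold change 0.39; SE 0.20; edgeR, BH-adjusted p = 0.140).

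Tcf21, a factor of lung fibroblasts and lipofibroblasts, ran from 50.0 to 86.3 CPM (median 66.8) in Control and measured 72.8, 61.9, 139, 82.3 and 84.8 CPM in the knockout (log2 fold change 0.40; SE 0.20; edgeR, BH-adjusted p = 0.119). Tbx4 and Tbx5, T-box factors of the lung mesenchyme, gave log2 fold changes of 0.047 (SE 0.25; edgeR, BH-adjusted p = 0.898) and -0.029 (SE 0.22; edgeR, BH-adjusted p = 0.933). Their Control ranges, 18.0 to 47.9 CPM and 6.36 to 19.3 CPM, held every knockout library. Meox2, a homeobox factor of mesoderm, ran from 8.32 to 14.2 CPM in Control and from 10.38 to 19.2 CPM in the knockout (log2 fold change 0.21; SE 0.17; edgeR, BH-adjusted p = 0.351). Twist1, a factor of mesenchyme, had 4 counts in Control and 11 in the knockout and was not tested (ratio 3.06, 95% exact interval 0.906 to 13.2).

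Levels per length show how unequal the members were. After Sparc, Mfap4 averaged 181 CPM per kb in Control and 242 in the knockout, Col6a1 127 and 46.3, Col6a2 69.3 and 33.5, Eln 47.5 and 74.3, and Fbn2 32.3 and 20.2. The fibrillar collagens lay well below these, with Col1a1 at 8.47 and 14.5 CPM per kb and Col3a1 at 8.12 and 13.2. In Control, Col6a1 and Col6a2 were thus above Col6a3, at 13.7 CPM per kb, by several times, and in the knockout Col6a3 reached 18.1.

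The fibrillar collagens varied less relative to each other than in level. As a percentage of the summed CPM of the other fibrillar collagens, Col1a1 varied over the 11 libraries with a coefficient of variation of 6.82%, whereas its CPM varied by 38%. The same figures were 6.91% and 35.5% for Col1a2, 7.82% and 34.7% for Col3a1, 9.75% and 35.6% for Col5a2, and 16.3% and 44.9% for Col5a1. The Col5a1 ratio was not fixed: it ran from 8.98% to 13.4% in Control and from 13.7% to 16.4% in the knockout, without overlap. Eln (16.1% against 32.2%), Mfap4 (15.8% against 29.7%), Ogn (16.6% against 44.6%) and Zeb2 (17.4% against 29.3%) also varied less relative to the fibrillar sum than in CPM. Most of the remaining members did so too, some only by little, among them Fn1, Col6a3, Col14a1, Tcf21, Zeb1 and Postn.

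Over all 11 libraries fewer members varied more relative to the fibrillar sum than in CPM. Besides those given below, these were Acta2, Tagln, Cnn1, Des, Pdgfra and Tbx5. For Col6a1 the ratio varied by 86.6% and the CPM by 61.3%, and for Col6a2 by 71.7% and 46.3%. For Col12a1 these were 73.8% and 52.0%, for Fbn2 49.7% and 32.4% and for Sparc 29.1% and 13.0%. These figures pool the groups, so differences between the groups enter them. Within the knockout the Col6a1 ratio varied less than its CPM, by 13.2% and 34.7%, as did Col6a2, by 10.1% and 32.4%. Within Control the ratios varied more, by 50.3% and 38.4% for Col6a1 and 40.3% and 29.4% for Col6a2. Fbn2 varied less as a ratio in Control, by 20.1% and 24.5%, but not in the knockout, by 31.0% and 15.7%. Col6a1 amounted to 85.7% to 442% of the fibrillar sum in Control and 40.0% to 54.5% in the knockout, while Col6a3 amounted to 44.5% to 75.5% and 49.5% to 55.3%. Pdgfra, whose CPM did not differ by the test, amounted to 7.61% to 10.7% of the sum in Control and 4.09% to 5.48% in the knockout. Myh11 varied by 95.8% as a ratio and 92.2% in CPM, so that it did not follow the fibrillar collagens at all closely.

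**Figure D4:**
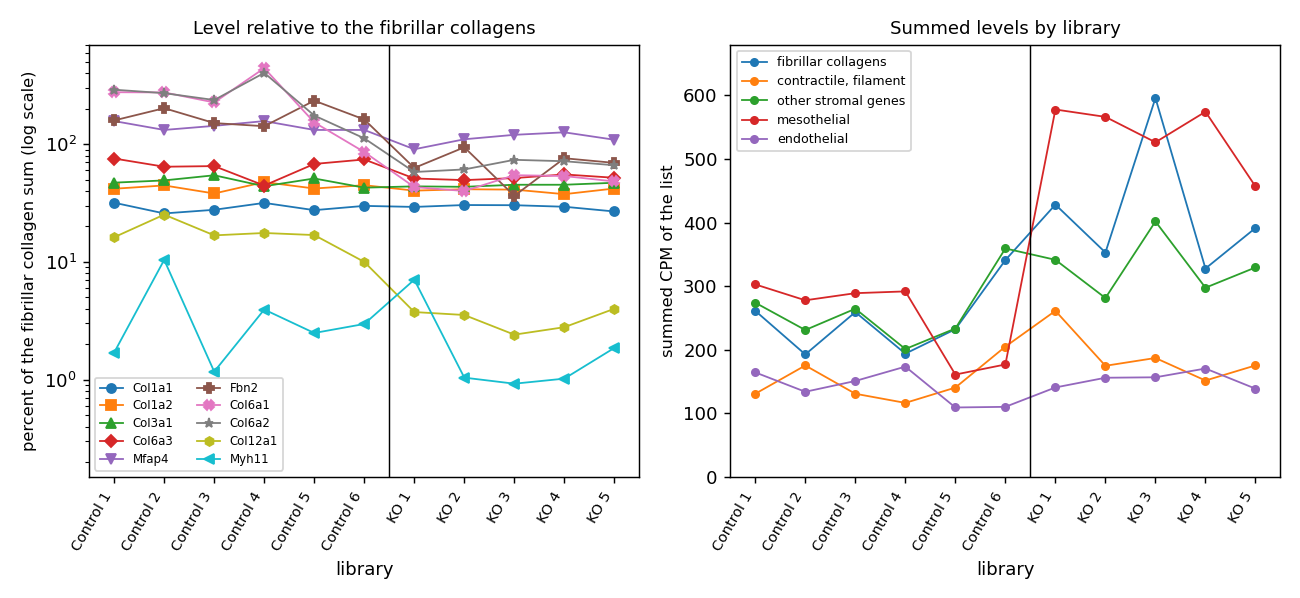
Left, member genes as a percentage of the summed CPM of the fibrillar collagens, on a log axis, by library. Right, summed CPM of the fibrillar collagens, contractile genes and 3 marker lists by library, where the mesothelial list is between 161 and 303 in Control and between 457 and 578 in the knockout.

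Whether the members moved together was tested over the 6 Control libraries, since 5 knockout libraries are too few. Each member's log2 CPM was compared with the log2 summed CPM of the other members by exact permutation over 720 orders, two-sided, with adjustment over the 38 members. Pearson's r was positive for 26 members and negative for 12, with a median of 0.219, and 0 had an adjusted p below 0.05. The lowest adjusted p was 0.528, and 1 member had an unadjusted p below 0.05. With 720 orders the smallest p is 0.00278, so a lone member could not go below an adjusted 0.106, and the lack of adjusted calls says little on whether members moved together. With library size only, r was positive for 25 members with a median of 0.393, and the lowest adjusted p was 0.211. With TMM the 1 member with an unadjusted p below 0.05 was Eln, with r = 0.948 (exact permutation p = 0.0139, adjusted 0.528). Its Spearman's rho was 0.771 (exact permutation p = 0.103), and r was 0.839 without Control libraries 1 and 5, the farthest from the median. The most abundant members, which weigh most in the summed CPM, are Sparc, Col6a1, Col6a2, Fbn2, Eln and Mfap4. Control library 4 was the highest of its group for Sparc, Col6a1 and Col6a2, library 1 for Eln and library 6 for Fbn2 and Mfap4.

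Against the mean level of 23 other stromal genes, a reference with no member in it that was chosen after seeing the data, r was positive for 29 of 38 members, with a median of 0.578. It exceeded 0.8 for 10 members. An unadjusted exact permutation p below 0.05 was found for 10 members, not all the same, and an adjusted one for 0, the lowest being 0.185. Mfap5 was among these with a negative r of -0.898 (exact permutation p = 0.0347, adjusted 0.185; rho = -0.829, exact permutation p = 0.0583), and Cspg4, with r = 0.843, was not (exact permutation p = 0.0556). Of these 29 members, 19 also had a positive r without the 2 libraries farthest from the median of the reference. Some members with a negative r turned positive there, among them Col6a1 (-0.641 to 0.819) and Sparc (-0.613 to 0.713). For Col3a1 r was 0.813 (exact permutation p = 0.0389, adjusted 0.185) and rho 0.943 (exact permutation p = 0.0167, adjusted 0.246). Without Control libraries 4 and 6 its r fell to 0.35. Those libraries had the lowest and highest reference levels, 2.19 and 2.9, and the rest spanned only 2.31 to 2.54. Over so narrow a span the lower r cannot show whether the relation rests on libraries 4 and 6.

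The highest library differed between groups of members. In Control, library 6 was the highest for 17 members, among them the fibrillar collagens, Col6a3, Vim, Pdgfra, Pdgfrb and Cspg4. Library 2 was the highest for 7, among them Acta2, Tagln, Myh11, Cnn1 and Des. Library 4 was the highest for Col6a1, Col6a2, Mfap5, Dcn, Lum and Sparc and the lowest for 14 members. In the knockout, library 3 was the highest for 24 members, library 1 for 8, including Acta2, Tagln, Myh11, Cnn1 and Des, and library 4 for 0, while library 4 was the lowest for 19.

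Genes of a list for collagen processing and cross-linking, not all of them for enzymes, changed in both directions. Of 22 tested genes of 24, 8 were higher, 3 lower and 11 not called, with a median log2 fold change of 0.19. Among all tested genes 21.1% were higher and 21.8% lower. P3h1 and P3h3, prolyl 3-hydroxylases of procollagen, had log2 fold changes of 0.75 (edgeR, BH-adjusted p = 6.13e-06) and 0.71 (edgeR, BH-adjusted p = 0.00817). Pcolce, which enhances removal of the C-propeptide, rose by 0.55 (edgeR, BH-adjusted p = 0.00172), and Adamts2, which removes the N-propeptide, by 0.81 (edgeR, BH-adjusted p = 0.00238). Loxl2, a cross-linking oxidase, rose by 0.94 (edgeR, BH-adjusted p = 0.00397).

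P4ha1 and P4ha2, catalytic subunits of prolyl 4-hydroxylase, which stabilises the triple helix, fell. P4ha1 went from 171 ± 46.8 CPM (SD, n = 6) to 81.3 ± 6.69 CPM (SD, n = 5), with a log2 change of -1.07 (edgeR, BH-adjusted p = 1.74e-04). P4ha2 went from 28.0 ± 2.61 CPM (SD, n = 6) to 11.1 ± 1.95 CPM (SD, n = 5), with a log2 change of -1.33 (edgeR, BH-adjusted p = 2.12e-07). Neither overlapped between groups. P4ha3, another catalytic subunit, named here after its values were seen, was higher, with a log2 fold change of 0.46 (edgeR, BH-adjusted p = 0.0248). Tgm2, a transglutaminase, was lower as well, at -0.81 (edgeR, BH-adjusted p = 2.22e-05). The most abundant genes of the list per kb of exon that did not pass were Mmp14, a membrane collagenase, at a log2 fold change of -0.09, Lox, the founding lysyl oxidase, at 0.09, and Bmp1, the procollagen C-proteinase, at -0.08.

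Other interstitial matrix genes, 25 tested of 26, gave 9 higher, 7 lower and 9 not called, with a median log2 fold change of 0.41. The shares of all tested genes were 21.1% higher and 21.8% lower. Col8a1, a short-chain network collagen, went from 15.6 to 120 CPM (log2 fold change 2.94; edgeR, BH-adjusted p = 1.38e-09). Vcan, versican, a large hyaluronan-binding proteoglycan, went from 54.8 to 326 CPM (log2 fold change 2.55; edgeR, BH-adjusted p = 1.13e-04), and Nid1, a basement membrane linker, from 47.0 to 272 CPM (log2 fold change 2.52; edgeR, BH-adjusted p = 1.31e-06). Aspn, asporin, and Ccdc80 also rose, by 1.87 (edgeR, BH-adjusted p = 1.44e-04) and 0.97 (edgeR, BH-adjusted p = 4.12e-05). These means are over 6 Control and 5 knockout libraries.

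The genes of this list that fell had various roles. Fbln5, fibulin 5, which tethers elastin to cells and microfibrils, went from 157 to 87.4 CPM, with a log2 change of -0.84 (edgeR, BH-adjusted p = 3.31e-04). Fbln2, another fibulin, named after its values were seen, was higher, at 1.21 (edgeR, BH-adjusted p = 0.00447). Efemp2, fibulin 4, fell by 0.47 (edgeR, BH-adjusted p = 3.01e-04), Ltbp1, which binds latent TGF-beta, by 0.89 (edgeR, BH-adjusted p = 4.61e-05), and its relative Ltbp3 by 0.55 (edgeR, BH-adjusted p = 6.89e-04). Hapln1, which links hyaluronan to proteoglycans, fell by 1.73 (edgeR, BH-adjusted p = 1.70e-06). Per kb of exon, Thbs1, Mgp and Ltbp4 were the most abundant that did not pass, with log2 fold changes of -0.22, 0.41 and 0.17.

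Markers of other cell types were measured in the same libraries. In the fit without a covariate 21.1% of all tested genes were higher and 21.8% lower. The 23 other stromal genes, of fibroblasts, smooth muscle and pericytes, summed to 201 to 359 CPM in Control and 281 to 402 CPM in the knockout. Of 17 tested 3 were higher, Fgf10, Vegfd and Notch3, and 0 lower, with a median log2 fold change of 0.32. With the mean level of this list as a covariate 11 members were higher, against 16.8% of all tested genes, and 6 lower, against 16.5%. Fn1, Eln and Tagln were then not called, Pdgfra was called lower at -0.63 (edgeR, BH-adjusted p = 0.0166), and the fibrillar collagens, Col6a1, Col6a2, Col12a1 and Col14a1 were still called. The fibrillar changes were smaller with this covariate: Col1a1 0.46, Col1a2 0.37, Col3a1 0.38, Col5a1 0.70 and Col5a2 0.50, and the members' median was 0.12 in place of 0.40.

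Mesothelial markers, of the cells that cover the lung, rose in all members tested: 7 of 7 were higher, with a median log2 fold change of 1.05, and the 8 in the table summed to 161 to 303 CPM in Control and 457 to 578 CPM in the knockout. Msln went from 208 ± 55.1 CPM (SD, n = 6) to 430.4 ± 59.0 CPM (SD, n = 5) and Upk1b from 6.24 ± 2.28 to 43.2 ± 7.29 CPM. Their part in the changes of the matrix genes was not tested. The lowest sums were in Control libraries 5 and 6, the latter the highest for the fibrillar collagens, and in the knockout the sum was highest in library 1.

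Endothelial markers summed to 109 to 173 CPM in Control and 139 to 170 CPM in the knockout, with 6 of 11 tested higher and Kdr lower. Kdr, the most abundant of them in Control, averaged 58.05 CPM there and 24.7 CPM in the knockout. The median log2 fold change of those tested was 0.61. Immune markers summed to 258 to 429 CPM and 204 to 395 CPM, with 4 of 10 tested higher and Lcp1 lower. Lcp1 averaged 303 CPM in Control and 141 CPM in the knockout and weighs most in the immune sum. The median log2 fold change of the immune genes tested was 0.999. Erythroid markers summed to 2.47 to 17.8 CPM and 5.92 to 33.04 CPM with 0 of 2 tested called, and Hba-a1, Hba-a2, Hbb-bt and Hbb-bs were listed at 0 in all 11 libraries. Cartilage markers summed to 6.24 to 20.5 CPM and 3.46 to 5.68 CPM, with Col9a1 lower. Cardiac and skeletal muscle markers summed to 1.52 to 3.37 CPM and 2.84 to 5.76 CPM, with Myl7 higher. The part of these cell types in the results was not tested.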

How the data were processed

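The authors deposited 1 table of whole-number counts per gene symbol for the 11 libraries. Per the submitters' processing notes, the build was mm10, HTSeq 2.0 and DESeq2 were among the tools, and Bowtie2 2.4.2, Trim Galore 0.4.2, SAMtools 1.10.0, Picard 2.18.22 and FastQC are also named, without their roles; no source used here gives the annotation, strand setting or treatment of duplicates. Spreadsheet dates replaced the symbols of 27 rows, which hold 0.182% of counts and stayed in the totals.

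Genes were kept with edgeR's filterByExpr, about 1.36 CPM in at least 5 libraries. The test was edgeR 4.0.16 in R 4.3.3 (TMM, quasi-likelihood, robust, two-sided, no covariate). A standard error is the unshrunk coefficient over the square root of F. CPM per kb uses exon unions of GENCODE release M21, on mm10. Permutations used numpy 2.4.6 and log2(CPM + 0.5) of each member, and the summed CPM of the other members had no offset. Ranks and exact intervals used scipy 1.17.1. The fit was tested on simulated data.

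Every member is named. From each pathway list up to 5 called genes per direction and the 3 most abundant not called are named, and from most marker lists up to 4 genes. From the other stromal list the called genes and some pericyte markers are named instead, which are more than 4. Members and lists were chosen with earlier results of these data known. Alternatives were RLE and upper-quartile factors, library size only, other filters, DESeq2 1.42.0, voom (limma 3.58.1), no robust moderation, a replicate block, Y-linked or stromal covariates, libraries left out and a threshold of 0.01. Those chosen after seeing the data were fits within the libraries whose mean Y-linked level was under, or not under, 3 log2 CPM, and the stromal reference for correlations.

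No 2 libraries of a group were duplicates: their counts differed by 3.21 to 27.2 times the variance of sampling. Log2 CPM correlated at 0.96 to 0.991 within groups and 0.915 to 0.94 between them.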

Additional observations from a re-analysis of the deposited data

Results flagged for a closer look

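In each group of libraries the highest or lowest value of each member was set against Dixon's 95% critical value for its gap to the nearest other library. Over 76 groups 12 values exceeded it, and chance gives about 1 in 20 groups if values are normal. The groups share the same libraries and are not independent, so this rate is only a rough guide.

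Knockout library 3 supplied 6 of these values, each the highest of its group. Col6a1 reached 324.5 CPM there against 141 to 188.5 CPM in the other knockout libraries, and Col6a2 438.5 CPM against 215.2 to 259.1 CPM. Fn1 reached 433.6 CPM against 218 to 260.8 CPM, Eln 845.5 CPM against 490.2 to 592.2 CPM, Mfap4 713.8 CPM against 387.5 to 426.6 CPM, and Meox2 19.21 CPM against 10.38 to 12.48 CPM. The same library was high whether the gene was called lower (Col6a1, Col6a2), called higher (Fn1, Eln) or not called (Mfap4, Meox2).

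The next values come from knockout library 1 and Control library 2. In knockout library 1 Myh11 measured 30.24 CPM against 3.345 to 7.278 CPM in the others, Cnn1 6.763 CPM against 0.2573 to 1.024 CPM, and Des 18.96 CPM against 2.058 to 3.714 CPM. In Control library 2 Cnn1 measured 7.192 CPM against 0.1599 to 1.56 CPM, and Des 12.72 CPM against 1.79 to 4.854 CPM. In that library Postn, a fibroblast gene, was the lowest of Control at 0.5532 CPM, against 2.079 to 2.664 CPM.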

How the results depend on the processing

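Over the alternatives run on all or all but 1 or 2 libraries, 11 to 18 members were higher and 4 to 6 lower, against 14 and 5. In those fits 15.1% to 28.7% of all tested genes were higher and 15.1% to 23.9% lower. Leaving out each library in turn gave 12 to 17 higher and 4 to 5 lower, where 18.9% to 22.5% of all tested genes were higher and 18.7% to 23.6% lower. Fitting only libraries with low Y-linked transcripts gave 8 and 3, and only those with high ones 2 and 3; both fits have fewer libraries. Of single genes, Tagln lost its call under 15 of 26 alternatives, Fn1 under 8, Cspg4 under 5 and Eln under 3.

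The replicate numbers did not pair the libraries: deviations from the group means of same-numbered libraries correlated at -0.061, 0.097, -0.052, 0.008 and 0.266, and only number 5 matched its own number best. The fit with the replicate block called 18 higher and 5 lower, adding Col6a3, Mfap4, Vim, Pdgfrb and Zeb2 and dropping Tagln.

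Directions reversed only for genes that were not called, and the cause was not tested. With the stromal covariate the log2 fold changes were Fbn1 -0.020, Myh11 -0.35, Tbx4 -0.35 and Meox2 -0.050, and with the Y-linked covariate Myh11 -0.32, Des -0.15 and Tbx4 -0.059. Among libraries with low Y-linked transcripts they were Acta2 -0.023, Myh11 -0.37, Des -0.20 and Tbx4 -0.16, and among those with high ones Fbn1 -0.14, Myh11 -0.65, Des -0.38, Tbx4 -0.036 and Zeb2 -0.082. Limma-voom gave Myh11 -0.10 and Tbx5 0.049. Tbx5 was 0.067 with library size only, 0.022 with upper-quartile factors and 0.22 with the block. Without Control libraries 5 and 6 Pdgfra was 0.015 and Tbx5 0.24. Leaving out single libraries, Myh11 ran from -0.80 to 0.66, Des from -0.66 to 1.06, Tbx4 from -0.11 to 0.27, and Tbx5 from -0.16 to 0.19. Depth left 5 members untested.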
